A study of Mus musculus with 6 samples.

Results

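Immediate early genes are transcribed within minutes of a signal, from transcription factors that are already present in the cell. The 10 genes described here, Fos, Fosb, Jun, Junb, Jund, Egr1, Atf3, Klf4, Klf6 and Ier2, were listed by name as AP-1 subunits, Egr1, Krüppel-like factors and early response genes, and not by their values. Earlier results of these data were known when they were listed. All 10 were found among the 47643 genes of the count tables, of which 21717 had a count in any tumor. The data were 6 libraries of tumor cells sorted as CD45-EPCAM+ from MMTV-PyMT mice, strain FVB/N-Tg(MMTV-PyVT)634Mul/J, in which the mouse mammary tumor virus promoter drives polyoma middle T antigen in the mammary epithelium. Every mouse was given B20-4.1.1, an antibody against VEGF-A, at 5 mg/kg intraperitoneally, 2 times per week for 6 weeks, from 7 weeks of age. The tumors were dissociated with enzymes before sorting, and all 6 libraries belong to 1 group, with untreated tumors not analysed here. The labels give no hypoxia class for a tumor, so tumors are numbered 1 to 6 as in the labels and none were grouped.

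AP-1 is a dimer of a Fos protein with a Jun protein, or of Jun proteins with each other, and ATF proteins such as Atf3 can join it. In mammary epithelium, these genes respond to growth factors through MAP kinases, serum response factor and CREB, and the same genes are known to be induced by wounding, hypoxia and the dissociation of tissue into single cells. Their RNAs are short-lived, and their products switch on both later genes and the inhibitors that end the response.

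Sequences upstream of 4 of the genes are shown first, because they hold the letters that CREB, ATF and Jun proteins are known to bind. A RefSeq table of windows from 250 bases before to 50 bases after a gene's start (GRCm38.p6) held 8 of the 10 genes, all but Egr1 and Ier2. For Atf3, that start is an internal one, 34.7 kb downstream of the start of the gene in GENCODE M21, and for Jund it is 1.2 kb upstream of the GENCODE start. The 250 bases before the RefSeq start are printed 5′ to 3′ on the strand of the gene. They lie at chr12:85473640-85473889 (plus strand) for Fos, chr1:191183334-191183583 (minus strand) for Atf3, chr4:95052223-95052472 (minus strand) for Jun and chr13:5861239-5861488 (plus strand) for Klf6. Capitals mark TGACG and TATAAA in Fos, TGACG in Atf3, where it reads CGTCA because it is on the opposite strand, and TGACATCA in Jun and Klf6.
Fos promoter: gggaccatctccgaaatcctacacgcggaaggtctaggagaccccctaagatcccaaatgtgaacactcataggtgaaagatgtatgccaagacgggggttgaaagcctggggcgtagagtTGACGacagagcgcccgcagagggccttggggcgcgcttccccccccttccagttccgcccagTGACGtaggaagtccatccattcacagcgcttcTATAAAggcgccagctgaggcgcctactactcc
Atf3 promoter: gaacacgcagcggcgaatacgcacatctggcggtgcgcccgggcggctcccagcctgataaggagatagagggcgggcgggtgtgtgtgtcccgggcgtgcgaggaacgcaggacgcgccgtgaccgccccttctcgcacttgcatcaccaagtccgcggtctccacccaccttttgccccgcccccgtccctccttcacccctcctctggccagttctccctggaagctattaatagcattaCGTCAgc
Jun promoter: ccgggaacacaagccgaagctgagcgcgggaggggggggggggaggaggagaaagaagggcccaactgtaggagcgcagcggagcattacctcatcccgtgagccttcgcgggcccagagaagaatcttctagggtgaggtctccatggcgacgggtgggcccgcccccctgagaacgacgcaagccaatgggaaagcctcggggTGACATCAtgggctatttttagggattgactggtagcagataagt
Klf6 promoter: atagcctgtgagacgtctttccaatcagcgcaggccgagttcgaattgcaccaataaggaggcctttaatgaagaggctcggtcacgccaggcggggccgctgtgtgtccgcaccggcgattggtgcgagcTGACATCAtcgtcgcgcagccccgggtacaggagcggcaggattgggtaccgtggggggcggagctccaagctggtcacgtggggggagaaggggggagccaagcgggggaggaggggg

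Both strands of the 32851 promoters in that table were searched. TGACG, the core of the cAMP response element, was found in 5 of the 8 genes, Fos, Fosb, Junb, Atf3 and Klf4, against 20.8% of all promoters. Fos held it at 129 and at 66 bases before its start. TGACATCA, the variant known from the Jun promoter, was found in Jun, at 45 bases before the start, and in Klf6, at 119 bases before it, against 3.62% of all promoters. The full palindrome TGACGTCA, which contains TGACG, was in none of the 8 and in 1.79% of all promoters. The AP-1 letters TGAGTCA were in none of the 8 and in 5.20% of all. The TATA box letters TATAAA were in Fos and Junb, against 13.6% of all. In Fos they began 33 bases before the start, but in Junb at the start itself. ACGTG, the core that hypoxia-inducible factors bind, was in Jund, Klf4 and Klf6, against 19.6% of all. These matches are letters in a short window, and binding was not measured.

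By median level, most of the genes were abundant RNAs. Ranked by its median over the 6 tumors in CPM (counts scaled to a common total over genes), Egr1 was at position 95 of all genes, Klf6 at 125, Jun at 129, Junb at 160, Fos at 211, Jund at 271, Fosb at 359 and Atf3 at 496, while Ier2 was at 1622 and Klf4 at 3163. The sum over the 10 genes was 3130, 5759, 3422, 5452, 4284 and 5403 CPM in tumors 1 to 6, in that order. Tumors 1 and 3 were lowest in this sum and tumors 2, 4 and 6 were highest. In the order of medians, each gene's range over the tumors overlapped that of its neighbor. Klf4 and Ier2 stayed below the lowest value of each of the others except Atf3. Since a 3′ library gives about 1 read per transcript whatever its length, this order needs no length correction in principle. Divided by exon length, the order of median levels was Junb at 262 CPM per kb, Jund at 240, Jun at 218, Fos at 208, Egr1 at 182, Klf6 at 162, Atf3 at 123, Ier2 at 72.05, Fosb at 52.8 and Klf4 at 19.2.

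**Figure D1:**
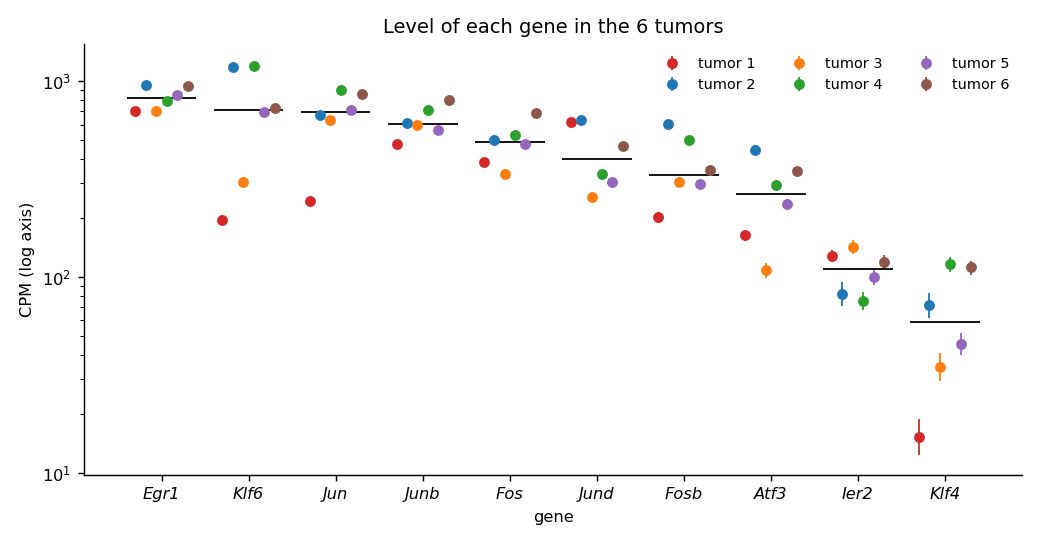
Level in CPM (log axis) of the 10 genes (x axis) in tumors 1 to 6. Points are tumors, vertical lines their 95% Poisson intervals, which cover counting error only, and black bars the medians. Tumor 1 is lowest for Klf6 (195 CPM), Jun (244 CPM) and Klf4 (15.3 CPM), while Egr1 lies between 701 and 956 CPM.

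The libraries held 2509482 to 5893246 counts on genes (median 4.85e+06), and 3 counts, taken as the floor of detection, equal 0.509 to 1.20 CPM. The 95% Poisson interval of a member's value reached 2.62 to 21.3% of that value to either side, on average. Counting error was thus small beside the differences between tumors, although reads that are copies of 1 molecule would widen it. All 7 luminal epithelial markers were detected in every tumor, with a sum of 3957 to 4874 CPM and Epcam between 611 and 972 CPM. Of the 13 immune markers, 12 had a count. Their sum was 105 to 323 CPM, highest in tumor 3, where 11 of the 12 reached their highest value. Lyz2, a gene of macrophages and neutrophils, reached 148 CPM in tumor 3, while the other tumors held 3.19 to 24.6 CPM. S100a8 was 23.1% of the sum in tumor 3 and 56.7 to 92.3% in the others, and the sum without it was 248 CPM in tumor 3, against 19.1 to 57.3 CPM elsewhere. Ptprc, the gene of CD45, was at most 3.39 CPM, and Cd79a was at 0 in all 6 tumors. The 5 erythroid markers summed to 864 CPM in tumor 3 and to 5.66 to 69.4 CPM in the others. The 6 basal markers summed to 146 to 407 CPM, the 6 fibroblast markers to 15.1 to 25.9 CPM, the 5 endothelial markers to at most 3.88 CPM, with Emcn and Tie1 at 0 in all tumors, and the 4 adipocyte markers to at most 2.67 CPM. The part of these cells in the values of tumor 3 was not tested. In bulk samples, fewer cells of a type and less RNA per cell cannot be told apart.

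Fos, the founding partner of AP-1 (chr12:85473890-85477273, plus strand, 4 exons), was at 336 CPM in the lowest tumor, 490 at the median and 686 in the highest. Tumor 3 was lowest and tumor 6 highest. After TMM scaling, edgeR's trimmed-mean correction for library composition, the highest tumor was 2.38 times the lowest, and its SD on the log2 scale stood at percentile 49.6 of the 500 genes nearest to it in mean level. Fosb, its close paralog (chr7:19302696-19310051, minus strand, 4 exons), was at 203, 330 and 602 CPM at the lowest, median and highest, a ratio of 3.16 after scaling, with tumor 1 lowest and tumor 2 highest. Fosb was thus spread more widely than Fos, with its SD at percentile 80.4. Of the reads of both genes together, Fos took 45.5 to 66.0%, with a median of 56.9%, and tumor 2 was the lowest.

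The Jun family differed in pattern among its members. Jun, the strongest AP-1 activator of the family (chr4:95049034-95052222, minus strand, a single exon), was at 244, 675, 631, 899, 713 and 855 CPM in tumors 1 to 6, in that order. Tumor 1 stood below all the others, which lay within 1.58 times of each other after scaling, against 3.96 times with tumor 1 included. Junb, a weaker activator that often opposes Jun (chr8:84974484-84978718, minus strand), was at 478, 604 and 801 CPM at the lowest, median and highest. Its ratio was 1.89 after scaling, and its SD stood at percentile 25.4 of genes of like level. Jund, a member expressed in resting cells as well (chr8:70698949-70700616, plus strand), was at 617, 633, 256, 335, 303 and 465 CPM in tumors 1 to 6, in that order. Jund was therefore high in the tumor in which Jun was lowest.

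As shares of the reads of all 3 Jun genes, Jun was 18.2% in tumor 1 (95% Wilson interval 17.4 to 19.1%), 35.2% in tumor 2 (33.8 to 36.5%) and 40.3 to 46.2% in the other tumors. Jund was 46.1% in tumor 1 (45.0 to 47.2%), 33.0% in tumor 2 (31.7 to 34.3%) and 17.2 to 21.9% in the others. Junb kept a share of 31.9 to 40.2% in all 6 tumors. Tumors 1 and 2 thus held the most Jund and the least Jun for the family as a whole, and the other 4 tumors held similar shares to each other. Junos, Prdx2 and Gm11175 overlap Jun, Junb and Jund on the opposite strand in GENCODE M21. The library kit keeps the strand, but whether counting used it is not given in the sources used here, so reads of these pairs may not be separated. No 50-base stretch in the last 300 bases of any of the 10 transcripts occurred, read on the same strand, in a transcript of another gene. The opposite strand was not searched, so this says nothing about the overlaps just named.

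**Figure D2:**
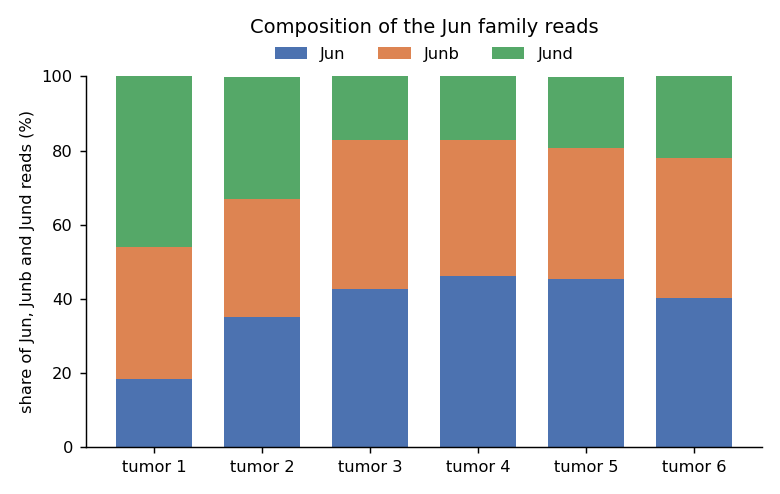
Share (%) of the reads counted on Jun, Junb and Jund together (y axis) that fell on each gene, in tumors 1 to 6 (x axis). Jund takes 46.1% in tumor 1 and 33.0% in tumor 2 but 17.2 to 21.9% in the other tumors, and Junb takes 31.9 to 40.2% throughout.

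Egr1, a zinc finger factor induced through serum response factor (chromosome 18, plus strand, 2 exons), was the most abundant of the genes in CPM and the most even. It was at 701 CPM in the lowest tumor, 818 at the median and 956 in the highest. The ratio was 1.55 after scaling, with the SD at percentile 13.8 of genes of like level. Ier2, a nuclear protein of the early response (chr8:84661331-84662852, minus strand, a single exon), was at 128, 81.7, 142, 75.5, 99.8 and 120 CPM in tumors 1 to 6, in that order. Its order of tumors differed from that of the other genes, with tumor 3 highest and tumor 4 lowest, over a ratio of 1.80.

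Atf3, a stress-induced ATF factor that represses many of its targets (chr1:191170296-191218039, minus strand, 4 exons), was at 163, 443, 108, 296, 236 and 347 CPM in tumors 1 to 6, in that order. Tumors 1 and 3 were below the other 4, and the ratio after scaling was 4.50, with the SD at percentile 90.8. Gm24748 lies opposite to Atf3. Without tumor 3 the ratio was 2.90.

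Klf4 and Klf6, Krüppel-like zinc finger factors that bind GC-rich and CACCC letters, varied most of all 10 genes over the 6 tumors. Klf4 (chr4:55527143-55532466, minus strand, 5 exons) was at 15.3, 71.7, 34.7, 116, 45.5 and 112 CPM in tumors 1 to 6, in that order. The value of tumor 1 rests on 90 counts (95% Poisson interval 12.3 to 18.8 CPM), below the intervals of all the others. Klf6 (chr13:5861482-5870394, plus strand, 4 exons) was at 195, 1184, 306, 1197, 699 and 726 CPM in tumors 1 to 6, in that order. Both were low in tumors 1 and 3, and tumor 5 came next for both. The ratios after scaling were 8.27 for Klf4 and 6.45 for Klf6, with the SD at percentiles 98.4 and 97.2 of genes of like level.

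Across the 10 genes, the median ratio of the highest to the lowest tumor was 2.94, against 2.18 for the 3766 genes whose mean reached 50 CPM and 2.45 for all 12088 genes that passed the filter on low counts. A ratio of at least 2 was reached by 7 of the 10, against 59.5% of those 3766 genes, and a ratio of at least 3 by 5 of the 10, against 24.3%. The first share is close to its background. After scaling, 9 of the 10 genes, all but Ier2, were lowest in tumor 1 or 3 and highest in tumor 2, 4 or 6, against 26.9% of the 3766 genes. This set of tumors was picked after the values were seen, so the count is a description. Of the 9 genes, 4 were highest in tumor 2, 5 in tumor 6 and 0 in tumor 4. The gap between the most extreme tumor and its nearest neighbor was also divided by the range. In CPM, this exceeded Dixon's critical value of 0.625 for none of the 10. The share was 18.5% of the 3766 genes, but that was computed on TMM-scaled CPM. Fosb, Jun, Junb, Klf4 and Klf6 were lowest in tumor 1, where 30.7% of the 3766 genes were lowest, and Fos, Jund, Egr1 and Atf3 in tumor 3, the tumor of the highest immune and erythroid marker levels, where 11.6% were lowest.

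Tumor 1 differed from the other libraries in further measures. Mitochondrial genes took 7.50% of its counts, against 11.0 to 14.4% in the others. For any reason, 16.1% of its reads were assigned to no gene, against 21.2 to 41.4%. Tumor 2 was at the other end, with 41.4% assigned to no gene, against 16.1 to 30.9% in the others. It also had the fewest counts on genes, 2509482, against 4123879 to 5893246 in the others. The part of these in the values of the 10 genes was not tested. Tumor 1 also differed by base composition. The log2 ratio of tumor 1 to the median of the others had a median of -0.44 over the 1255 genes with the lowest GC content in the last 300 transcript bases, of 0.66 over the 1184 with the highest, and of 0.12 over all 3708 genes compared. Klf4 (26.7% GC) and Klf6 (29.3%) were at -2.25 and -2.06 in tumor 1, with 3.66% and 4.94% of genes lower. Egr1 (30.3%) and Fos (30.7%), of nearly the same GC content, were at -0.28 and -0.47. Jun (38.3%) was at -1.55, Fosb (46.0%) at -0.97, Atf3 (43.3%) at -0.87 and Junb (42.7%) at -0.45, while Jund (46.3%) and Ier2 (50%) were higher in tumor 1, by 0.86 and 0.34. With each library's trend on GC content removed, which was chosen after seeing the data, the ratio of highest to lowest was 4.65 for Klf4, 4.44 for Klf6, 4.83 for Atf3, 3.74 for Fosb and 3.41 for Jun. The median over the 10 genes was then 3.14, against 2.06 for the 3708 genes.

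After scaling, 5 of the 10 genes were lowest in tumor 1 and 4 in tumor 3. Leaving both tumors out therefore had to narrow the ratio of those genes, and no ratio over all genes without them is given here. The median ratio over the 10 genes was 1.78 without tumors 1 and 3, against 2.94 with them. Without tumor 1, the ratio was 4.50 for Atf3, above 4.24 for Klf6 and 3.75 for Klf4, and 1.58 for Jun. Without tumors 1 and 3, also chosen after seeing the data, it was 2.76 for Klf4, 2.21 for Jund and 2.13 for Fosb. Atf3 was then at 1.99, Klf6 at 1.79 and Jun at 1.35. By the prefix of the animal's identifier, the labels part tumors 1, 4, 5 and 6 from tumors 2 and 3. Within the first 4, the highest CPM was 7.59 times the lowest for Klf4, 6.12 for Klf6, 3.68 for Jun and 2.13 for Atf3. Between the other 2, it was 2.07 for Klf4, 3.87 for Klf6, 1.07 for Jun and 4.10 for Atf3. Klf4, Klf6 and Atf3 thus differed between tumors within either prefix.

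**Figure D3:**
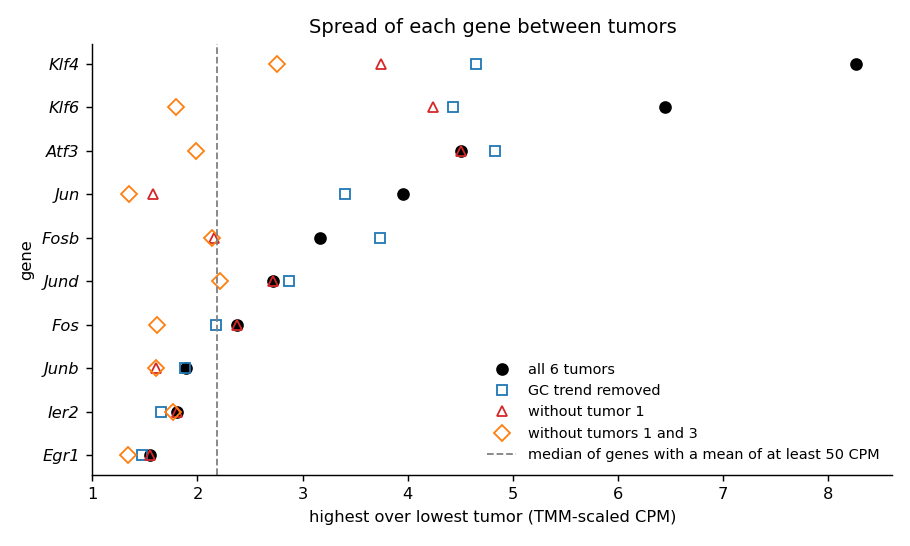
Ratio of the highest to the lowest tumor in TMM-scaled CPM (x axis) for each of the 10 genes (y axis), over all 6 tumors (black), with the GC trend removed (squares), without tumor 1 (triangles) and without tumors 1 and 3 (diamonds). Klf4 is at 8.27 over all tumors and at 2.76 without tumors 1 and 3, and the dashed line is the median of 2.18 over genes whose mean reached 50 CPM.

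The design has 1 group, so the comparison it allows is whether the other genes followed Fos from tumor to tumor. In edgeR's quasi-likelihood fit on log2 Fos, no gene of 12087 passed an adjusted p of 0.05 (0% called), 191 (1.58%) had an unadjusted p under 0.05, and DESeq2 called 1 gene, Hbb-bs, which codes for a hemoglobin chain. Slopes were positive for 8 of the 9 other genes of the list, against 44.1% of all genes, with a median of 0.80 on the log2 scale per doubling of Fos, against -0.07. Klf4 had a slope of 2.07 ± 0.61 (SE, n = 6, edgeR unadjusted p = 0.0074), Klf6 of 1.96 ± 0.80 (unadjusted p = 0.0358) and Atf3 of 1.70 ± 0.52 (unadjusted p = 0.0089). These 3 of 9 compare with 0.902% of all genes that had a positive slope and an unadjusted p under 0.05. None passed the adjustment over all genes (edgeR adjusted p = 0.9996 for each of the 9). The slopes were 0.91 ± 0.52 for Jun, 0.80 ± 0.56 for Fosb, 0.62 ± 0.37 for Junb, 0.55 ± 0.37 for Egr1, 0.47 ± 0.56 for Jund and -0.15 ± 0.39 for Ier2.

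Correlations with Fos over the 6 tumors were computed on log2(TMM-scaled CPM + 1), with two-sided exact permutation tests over the 720 orders of the tumors, whose smallest p is 0.00139. Egr1 had a Pearson r of 0.890 (exact permutation p = 0.0194) and a Spearman rho of 0.829 (exact permutation p = 0.0583). Atf3 had an r of 0.873 (exact permutation p = 0.0278), Junb of 0.856 (exact permutation p = 0.0347) and Klf4 of 0.816 (exact permutation p = 0.0458), with a rho of 0.829 (exact permutation p = 0.0583) for Atf3 and Junb and of 0.943 (exact permutation p = 0.0167) for Klf4. These 4 of 9 compare with 2.29% of all genes. An r of at least 0.7 was reached by 5 of 9 genes, against 3.27%. The adjusted p over the 12087 genes was 1 for every r and 0.985 for each rho.

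Over the 4 inner tumors, those left once the 2 farthest from the median level of Fos were dropped, r was 0.753 for Egr1, 0.882 for Atf3, 0.950 for Junb and 0.976 for Klf4. Without tumor 1 it was 0.871, 0.853, 0.857 and 0.878, and without tumor 3 it was 0.842, 0.764, 0.975 and 0.862, in the same order of genes. Klf6 had an r of 0.720 (exact permutation p = 0.106) and a rho of 0.714 (exact permutation p = 0.136). Jun had an r of 0.638 (exact permutation p = 0.204) beside a rho of 0.943 (exact permutation p = 0.0167), and an r of 0.888 without tumor 1. Fosb had an r of 0.560 (exact permutation p = 0.239) and a rho of 0.714 (exact permutation p = 0.136). For Jund, the value turned on single tumors: r was 0.409 (exact permutation p = 0.414), rho 0.371 (exact permutation p = 0.497), and r was 0.710 without tumor 1, -0.0065 without tumor 3 and -0.302 over the 4 inner tumors. For Ier2, r was -0.226 (exact permutation p = 0.665) and rho -0.429 (exact permutation p = 0.419), with an r of 0.131 without tumor 3 and of -0.959 over the 4 inner tumors. Without tumor 1, r was 0.440 for Fosb and 0.695 for Klf6, both below Jund.

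Outside the list, the genes with the highest r with Fos, among those whose mean reached 10 CPM, were Gpatch11 (r = 0.973), Rpl10-ps3 (0.973), Rrbp1 (0.968), Snw1 (0.955) and Zmat2 (0.954), each over 6 tumors. Rpl10-ps3 is a pseudogene of Rpl10, and its reads may belong to its parent gene. Gpatch11, the first of them, was at 32.2 CPM in tumor 3 and 55.2 CPM in tumor 6, the tumors in which Fos was lowest and highest. The adjusted p was 1 for each of the 5.

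The study asked how hypoxia under anti-VEGF treatment changes these tumors, so the genes were also set against a hypoxia score, the mean TPM of Vegfa, Slc2a1 and Car9, which was 48.5, 37.2, 51.4, 76.6, 94.4 and 47.3 in tumors 1 to 6, in that order. In edgeR, no gene of 12085 was called (0%), 511 (4.23%) had an unadjusted p under 0.05, and DESeq2 called 19. None of the 10 genes had an unadjusted p under 0.05. Slopes were positive for 3 of the 10 genes, against 46.7% of all genes. Jund had the steepest, -0.83 ± 0.41 on the log2 scale per doubling of the score (SE, n = 6, edgeR unadjusted p = 0.0679, adjusted p = 0.954), and it stayed between -0.99 and -0.68 with each tumor left out in turn. Atf3 was at -0.43 ± 0.53, Fosb at -0.31 ± 0.46, Ier2 at -0.27 ± 0.38, Egr1 at -0.16 ± 0.35, Junb at -0.10 ± 0.38 and Fos at -0.09 ± 0.41. Jun was at 0.22 ± 0.51, Klf6 at 0.03 ± 0.66 and Klf4 at 0.02 ± 0.76. No relation to the score was detectable for any of the 10 genes with 6 tumors.

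**Figure D4:**
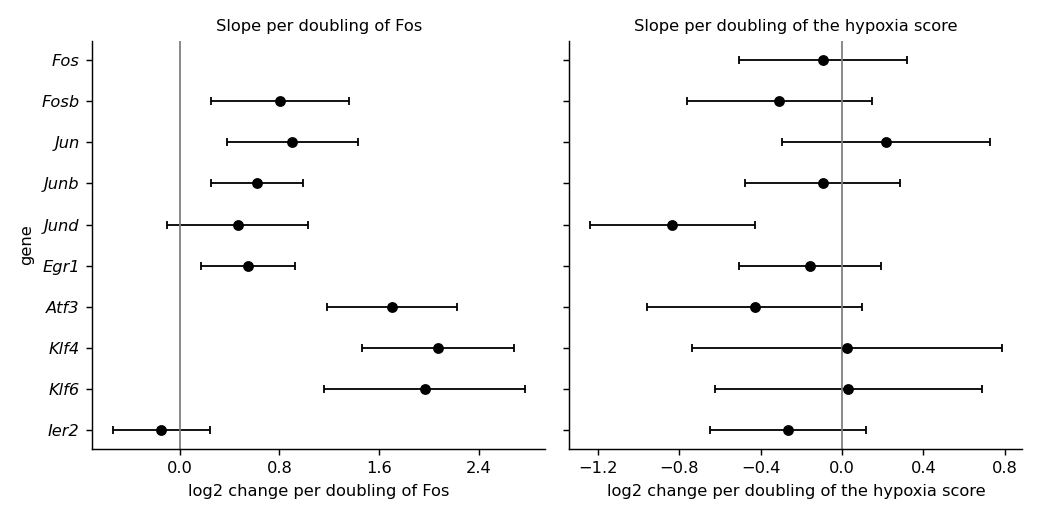
Fitted slopes of the genes (y axis) as log2 change per doubling of Fos (left x axis) and per doubling of the hypoxia score (right x axis), from edgeR over 6 tumors. Points are slopes and bars 1 SE. Klf4, Klf6 and Atf3 lie at 1.70 to 2.07 on the left, and on the right only Jund, at -0.83, lies more than 1 SE from 0.

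The wider pathway was described from fixed lists of 85 other genes, none of which passed an adjusted p of 0.05 in either fit (edgeR). Of the 15 feedback regulators that passed the filter, 13 had a positive slope on Fos, against 44.1% of all genes. Their median slope was 0.58. Among them Dusp1, the phosphatase that inactivates MAP kinases, had a slope of 1.07 ± 0.41 (edgeR unadjusted p = 0.0264, adjusted p = 0.9996). Zfp36l1, which binds AU-rich RNA, had the widest ratio of this list, 7.66. It was at 87.6 CPM in tumor 1 and 665 in tumor 4, the lowest and highest tumors of Klf6 in CPM as well. Nfkbia, the inhibitor of NF-kappaB, had the highest median, 1149 CPM, and Dusp2 the lowest, 0.369 CPM, under the floor.

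Of 27 other early factors, 21 had a positive slope on Fos, against 44.1% of all genes. Their median slope was 0.30. Klf2, a further Krüppel-like factor, had a slope of 1.66 ± 0.47 (edgeR unadjusted p = 0.0057, adjusted p = 0.9996). Btg1, an inhibitor of proliferation, had the widest ratio, 10.7, with 11.2 CPM in tumor 1 and 119 in tumor 4. Ier3 had the highest median, 1489 CPM, and Egr3 the lowest, 0.0998 CPM. On the hypoxia score, Ccn2, a matrix-associated growth factor, had a slope of 2.46 ± 0.43 (edgeR unadjusted p = 0.000222, adjusted p = 0.447).

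The 8 other AP-1 and Maf factors that passed had 4 positive slopes on Fos, near the 44.1% of all genes. Their median slope was -0.08, close to that of all genes. Maff, a small Maf factor without an activation domain, had their widest ratio, 7.61, with 7.76 CPM in tumor 3 and 53.8 in tumor 2, the lowest and highest tumors of Atf3 as well. Mafg, a further small Maf factor, had the highest median, 234 CPM, and Batf3 the lowest, 0.730 CPM. Of 16 upstream kinases and factors, 5 had a positive slope on Fos, with a median of -0.22, and Elk4, a partner of serum response factor, had the widest ratio, 4.16. Mapk3, which codes for ERK1, had their highest median, 228 CPM, and Elk3 the lowest, 10.1 CPM. The 14 heat shock and ubiquitin genes, a different stress response, had 7 positive slopes, also near that 44.1%. Among these, Hspa1b had the widest ratio, 7.35, with 60.2 CPM in tumor 2 and 485 in tumor 3, where Atf3 and Fos were lowest. Hspa1b and Hspa1a are near-identical copies, but no 50-base stretch in the last 300 bases of either occurred, on the same strand, in a transcript of another gene. How reads outside those bases were split was not tested. Hsp90ab1 had the highest median, 4370 CPM, and Ubb the lowest, 6.13 CPM.

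The transcripts were also read for ATTTA, the pentamer of AU-rich elements that shorten the life of early RNAs. In the 3′ UTRs of the GENCODE M21 transcripts, Klf6 held 7, Fos and Jun 4 each, Atf3 3, Junb and Egr1 2 each, Fosb, Jund and Klf4 1 each and Ier2 none. Of 11064 genes, 70.1% held at least 1 and 38.9% at least 3, with a median of 2. Per kb of UTR, Fos stood highest of the 10 at 4.91, at percentile 93.7 of those genes, followed by Junb at 4.12 and Jun at 3.24. The count of the pentamer did not follow the spread between tumors in a simple order, since Klf4, with 1, varied most and Klf6, with 7, second most.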

How the data were processed

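RNA of sorted tumor cells was sequenced with a 3′ kit (QuantSeq FWD with molecular identifiers). Per the submitters' processing notes, reads were aligned with STAR 2.5 to GRCm38/mm10 and counted with HTSeq, and the authors deposited raw counts per gene for each of the 6 samples. Whether reads were collapsed by identifier is not given in the sources used here, and so the intervals and floors describe counting error alone. Rows that name no gene (16.1 to 41.4% of reads) were left out of totals and tests. Identifiers were matched to GENCODE M21 symbols.

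CPM and, for the score, TPM (union exon lengths) were computed from the counts. Genes were filtered with filterByExpr (minimum count 10, minimum total 15, group size 3), which kept 12088, and TMM-scaled (factors 0.910 to 1.06). edgeR 4.0.16 (R 4.3.3) quasi-likelihood fits took log2(TMM-scaled CPM + 1) of Fos, or log2 of the score, as the covariate, with Benjamini-Hochberg adjustment over all genes, and SE was taken from the slope and its F. Fos was left out of the fit on itself, and the 3 genes of the score out of the fit on the score. The fit on Fos was tested on simulated data first, with edgeR and DESeq2, and the fit on the score was not. The p-values measure the spread between samples that the labels list as separate. Python 3.11.15 with scipy 1.17.1 was used for the rest.

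The genes named are the 10 listed, the genes of the pathway lists with an adjusted p under 0.05 or with the highest or lowest median or the widest ratio of their list, and the 5 genes most correlated with Fos. Dusp1, Klf2, Ccn2, Hbb-bs, Hspa1a and single cell type markers were named after their values were seen. The listed genes, pathway lists and alternatives were chosen with earlier results of these data known. Alternatives were DESeq2 1.42.0, other scalings, no filter, Jun or Egr1 as reference, the identifier prefix as a term and each tumor left out. Vehicle-treated tumors and the CD45+ fraction were not analysed here.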

Additional observations from a re-analysis of the deposited data

How the results depend on the processing

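With 6 tumors of 1 group, no hypoxia class and no control, relations to Fos and to the score are the only tests. DESeq2 called 1 gene with Fos, against 0 for edgeR. With Jun in place of Fos, edgeR called 1132 genes (701 with a positive slope), Klf4 (slope 1.53, adjusted p = 0.0112) and Klf6 (1.30, adjusted p = 0.0440) among them, and Jund turned to -0.23, but 0 genes were called without tumor 1, an alternative chosen after seeing the data. With the score, 10 genes were called without a filter on low counts and 19 by DESeq2, and 0 to 2 with each tumor left out in turn, the 2 being without tumor 1. Scaling by library totals moved the median slope of all genes on Fos from -0.07 to -0.28. The slope of Klf4 on the score turned to -0.45 with the identifier prefix as a term. With each tumor left out, slopes on Fos ranged from -0.063 to 0.96 for Jund and from -0.96 to 0.13 for Ier2, both crossing 0 without tumor 3. Slopes on the score ranged from -0.17 to 0.11 for Fos, -0.62 to 0.38 for Fosb, -0.21 to 0.10 for Junb, -0.34 to 0.022 for Egr1, -0.59 to 0.17 for Atf3, -0.59 to 0.59 for Klf4 and -0.37 to 1.13 for Klf6. The cause of these turns was not tested. The other slopes kept direction and side of the threshold, for 127 of 132 values on Fos and 117 of 130 on the score. The median ratio of the 10 genes ranged from 2.27 to 2.94 with each tumor left out and from 2.72 to 2.99 over other scalings. It was 3.14 with the GC trend removed and 1.78 without tumors 1 and 3. Over all these alternatives, 101 of 110 ratios of single genes stayed within 1.5 times. No paired analysis was possible because all samples belong to 1 group.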
